A study of Mus musculus with 2 samples.

Results

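The genes of the proteasome were followed on 1-colour Agilent mouse arrays of regulatory T (Treg) cells, 1 array for wild-type mice and 1 for mice labelled Nr4a-TKO, both 5 weeks old. Members were all non-control probes whose gene name in the scanner files starts with Psma, Psmb, Psmc, Psmd, Psme, Psmf or Psmg and a number. This gave 62 probes (71 spots) for 49 gene names, of 34960 gene names on the array. The name Psmc3ip belongs to a recombination factor and no subunit, and its probe differed by 0.09 on the log2 scale. It was kept out of every count below. Of the other 48 names, 47 were well above background on both arrays and Psma8, the germ-cell alpha subunit, was so on neither.

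Treg cells hold other immune cells in check, and the Nr4a genes encode nuclear receptors. Total RNA was labelled with Cy3 after cells were sorted and lysed directly. The alleles behind the name Nr4a-TKO, the sex and number of the mice and the sorting markers are not given in the sources used here. Values are log2 signals less the array's 75th percentile, and differences are that of the Nr4a-TKO label less that of wild-type. With 1 array per genotype no difference has a replicate check, and none was tested.

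The proteasome is the chamber in which cells degrade proteins tagged with ubiquitin. Its 20S core is a barrel of alpha rings, which gate the entrance, and beta rings, which hold the protease sites, and the 19S cap recognises, unfolds and feeds in the substrate. In lymphocytes and in cells exposed to interferon gamma the catalytic subunits Psmb8, Psmb9 and Psmb10 replace Psmb5, Psmb6 and Psmb7 to form the immunoproteasome, and the ring-shaped activator PA28 (Psme1 and Psme2) can sit on the barrel in place of the cap. Both changes are known to alter the peptides offered on MHC class I.

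The array labelled Nr4a-TKO did not carry a uniform loss of Nr4a signal. Nr4a3 was lower by 7.04-fold (log2 signal -1.11 and -3.93), Nr4a1 differed by 0.06 (6.90 and 6.96), and Nr4a2 was higher by 2.54-fold (-1.16 and 0.18). Where these probes lie relative to the altered sequence is not known here, so the genotype is used only as a label. Of 9 Treg and T cell markers 8 were lower and 1 was higher in that array, where 59.6% of all measured names were higher. Foxp3 was at 1.54 and -2.57 and Il2ra at 7.15 and 6.76, and all 9 markers were well above background on both arrays. Xist was well above background in the array labelled Nr4a-TKO only, and the Y-linked Ddx3y was lower there by 3.63-fold. The part of these differences in the values below was not tested.

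The probes that the results turn on are shown by the first 30 of their 60 bases, as the scanner files give them (5′ to 3′, mm9). Psme1 and Psme2 are shown because they were the lower members, and the pair of Psmb9 probes because they differed from each other.
Psme1, chr14:56200194-56200253, plus strand: agaaaccaagggaatgatctattgagcccc
Psme2, chr14:56206296-56206355, minus strand: cccgaagggtgaagaaaagccatcgatgta
Psme2, chr14:56208888-56209346, minus strand: aatcttttccaggaggctgatgacttcctc
Psmb8, chr17:34337771-34337830, plus strand: acctcagtcctgaagaggcctacgaccttg
Psmb9, chr17:34319174-34319233, minus strand: cagctgctggtgtggaccatcgagtcatcc
Psmb9, chr17:34322762-34322821, minus strand: ctgcatggacattttctcctccttaagatg
Psmb10, chr8:108459677-108459736, minus strand: ggaacttcttgaggaaactgtgcaggccat

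The remaining Psme2 probe carried coordinates spanning 219297 bases. Whether a probe lies in an exon or a UTR was not annotated here. RefSeq lists a protein-coding relative, Psme2b, and pseudogenes of Psma5, Psmb5, Psmb6 and Psmb7, and probes of these members may not separate them.

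Across the 47 measured members the arrays were close. Members at least 2-fold higher numbered 0, against 3.15% of the 23493 gene names measured, and members at least 2-fold lower numbered 0, against 3.06% (6.22% in either direction). At 1.5-fold the counts were again 0 and 0, against 8.36% and 7.36%. Of the 47 members 44 were higher by any amount in the array labelled Nr4a-TKO, against 59.6% of all names, and 3 were lower: Psme1, Psme2 and Psmc3. In bulk samples fewer cells of a type and less RNA per cell cannot be told apart.

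The member median was 0.24 and the median of all names 0.08. The members' SD was 0.16 against 0.56 for all names, and 34 of the 47 members lay within the middle 50% of all names, from -0.16 to 0.29. Bright probes vary less, so the same was taken over the 13260 names brighter on both arrays than the median of the probes well above background. There the SD was 0.47 over these names and 0.16 over 46 members. Most members lie far above that cut, so this comparison does not match the signal level. Within 1.2-fold were 28 of the 47 members, against 53.7% of all names, which is a share near the background.

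The small shift upward depended on the scaling. Centred on the mean of 9 spike-in controls or of 15 housekeeping genes, 24 members were higher in each case, 16 with the spike-in median and 33 with the housekeeping median. The median of all names moved by -0.23 with the spike-in mean, -0.24 with the housekeeping mean and -0.27 with the spike-in median. The share of 2-fold differences that were higher over all names was 50.7% in the main scaling and became 29.7%, 28.6% and 26.4% in the same order. With the housekeeping median, a shift of -0.14, it was 37.7%. Above the median of all names lay 40 of 47 members in the main scaling, 33 with quantile normalization and 34 with loess. The spike-in and housekeeping centrings shift every gene alike, so they cannot change this count.

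**Figure D1:**
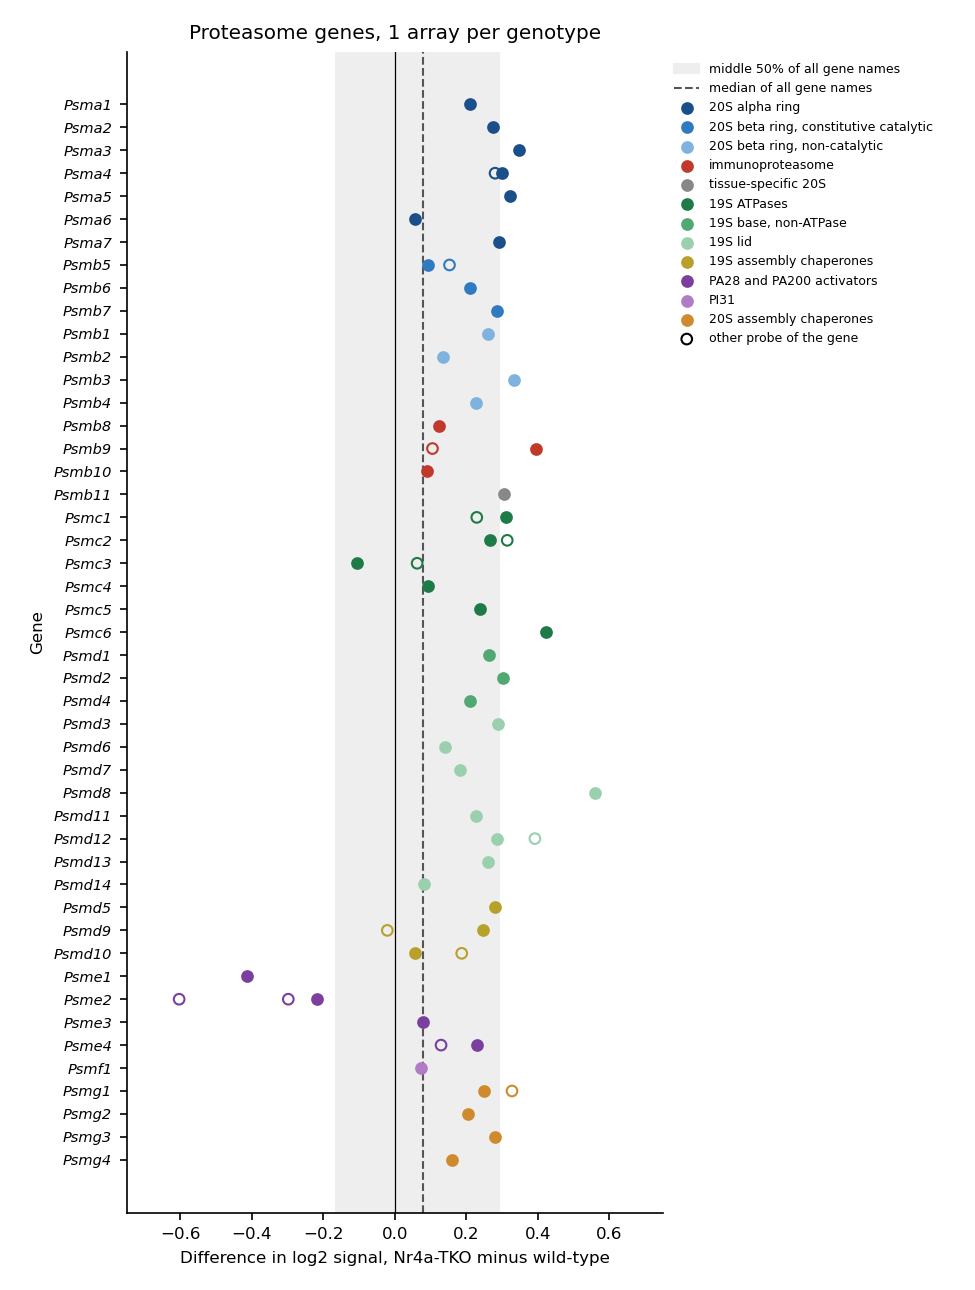
Difference in log2 signal (Nr4a-TKO label less wild-type) for each of the 47 measured members, coloured by role, with filled points for the brightest probe and open points for other probes. The grey band runs from -0.16 to 0.29, the middle 50% of all gene names, and the dashed line marks their median of 0.08. Psme1 and Psme2 lie left of 0 at every probe.

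The 20S core was higher throughout in the main scaling. All 14 constitutive subunits were higher, against 59.6% of all names, with a median of 0.27. In the alpha ring, which gates the core, the 7 subunits had a median of 0.29. Psma3 was at 6.83 in wild-type and 7.18 in the array labelled Nr4a-TKO, a difference of 0.35, and Psma6 at 5.77 and 5.83, a difference of 0.06. The catalytic subunits of the beta ring lay between these values, with Psmb5, the chymotrypsin-like site, at 7.64 and 7.73, Psmb6, the caspase-like site, at 7.19 and 7.40, and Psmb7, the trypsin-like site, at 4.67 and 4.96. Their differences were 0.09, 0.21 and 0.29. The structural subunits Psmb1, Psmb2, Psmb3 and Psmb4 had a median of 0.24, from 0.13 for Psmb2 to 0.33 for Psmb3.

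The 19S cap had almost the same median, 0.26, with 16 of 17 subunits higher, against 59.6% of all names. The 6 ATPases, which unfold the substrate, had a median of 0.25. Psmc6 was at 3.87 and 4.29, a difference of 0.42, and Psmc3 at 7.54 and 7.43, a difference of -0.11. A second Psmc3 probe was at 6.02 and 6.08, so the direction of this ATPase turned between its probes. The base subunits Psmd1 and Psmd2, which form a scaffold, and Psmd4, a ubiquitin receptor, differed by 0.26, 0.30 and 0.21. In the lid, which removes ubiquitin, the 8 subunits had a median of 0.24, from 0.08 for the deubiquitinase Psmd14 to 0.56 for Psmd8. Psmd8 was at 4.77 and 5.33, which is 1.48-fold higher and the largest difference among the 47 members. It rests on 1 probe, and 90.9% of all names had a lower difference.

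The cap median less the core median was -0.01. This contrast is not moved by any scaling with a constant, and lay from -0.03 to 0.01 over the 14 alternatives run. No test stands behind it, and the spread between mice is unknown.

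**Figure D2:**
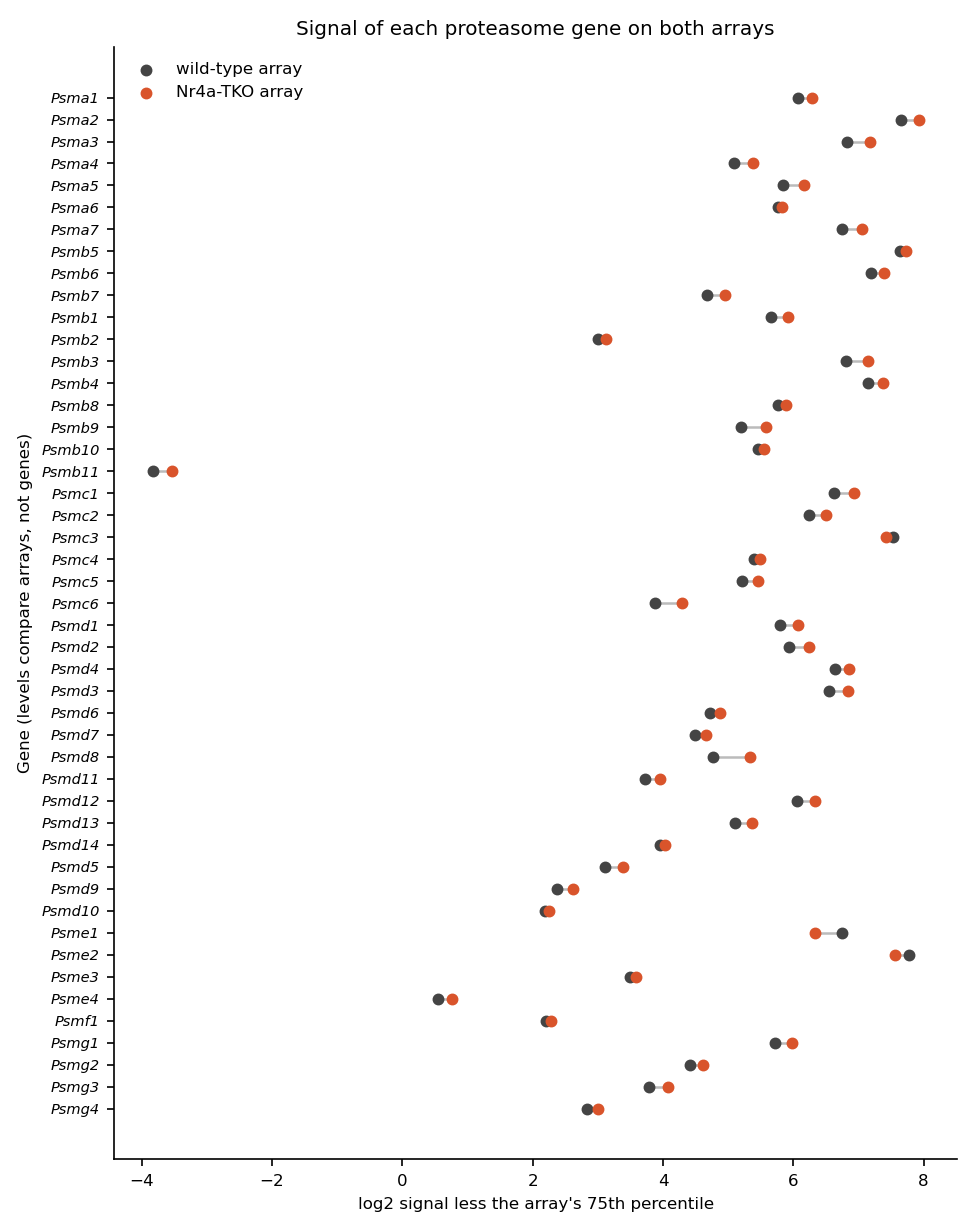
Log2 signal of the brightest probe of each member, less the array's 75th percentile, on the wild-type array (dark) and the array labelled Nr4a-TKO (orange). Levels compare arrays and not genes. The orange point lies left of the dark one for Psme1, Psme2 and Psmc3.

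The 3 immunoproteasome subunits did not differ by the same amount. Psmb8, which takes the place of Psmb5, was at 5.76 and 5.88, a difference of 0.12. Psmb9, which takes the place of Psmb6, was at 5.19 and 5.59, a difference of 0.39 or 1.31-fold. Psmb10, which takes the place of Psmb7, was at 5.46 and 5.55, a difference of 0.09. Their median of 0.12 lay 0.14 below that of the core. In the main scaling 3 of 3 were higher, against 59.6% of all names, and a count over 3 genes says little. The second probe of Psmb9, much dimmer at -2.10 and -2.00, differed by 0.11, so the larger value of Psmb9 rests on 1 probe.

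Set against the subunit each one replaces, Psmb8 less Psmb5 was 0.03, Psmb9 less Psmb6 was 0.19 and Psmb10 less Psmb7 was -0.20. The contrasts had no common direction. The gap of the immunoproteasome median to the core was -0.14 and lay from -0.16 to -0.06 over the alternatives. Psmb8 and Psmb10 turned in direction under 6 of the 14 alternatives, and Psmb9 under 0. The thymus-specific catalytic subunit Psmb11, which marks cortical thymic epithelium, was dim at -3.83 and -3.53. Of the 9 thymic epithelial markers, Psmb11 among them, 7 were called above background on both arrays, against 23493 of all 34960 gene names. Prss16 (-1.08 and -1.76) and Aire (-3.89 and -4.24) were among the 7, and Foxn1 and Krt8 were above background on neither array.

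Both genes of the activator PA28 were lower. Psme1, the PA28 alpha subunit, was at 6.75 in wild-type and 6.34 in the array labelled Nr4a-TKO, which is 1.33-fold lower (-0.41). It is printed on 10 spots, of which 8 on each array were used. They ran from 6.71 to 6.81 (SD 0.03) in wild-type and from 6.28 to 6.39 (SD 0.04) on the other. These are spots of 1 array and no replicates of a genotype.

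Psme2, the PA28 beta subunit, was lower at all 3 probes. The brightest was at 7.78 and 7.56 (-0.22), the next at 6.01 and 5.71 (-0.30), and the dim last one at -0.45 and -1.06 (-0.60). The 3 differ by 0.39 among themselves, the widest gap among the 12 members with several probes. Psme1 and Psme2 had a median of -0.31 and lay 0.58 below the core, Psme1 by 1.60-fold and Psme2 by 1.40-fold. Over the alternatives that gap ran from -0.78 to -0.57, and Psme1 (-0.69 to -0.41) and Psme2 (-0.60 to -0.22) were lower in all 14. The other scalings all moved the median of all names down, so a member below 0 could hardly turn under them. The probe rules could not change Psme1, which has 1 probe. Differences of the size seen for Psme1 and Psme2 were common, as 2818 of the 23493 names had a lower difference than Psme1 and 5009 than Psme2. The contrast of PA28 with the core was chosen after its values were seen.

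**Figure D3:**
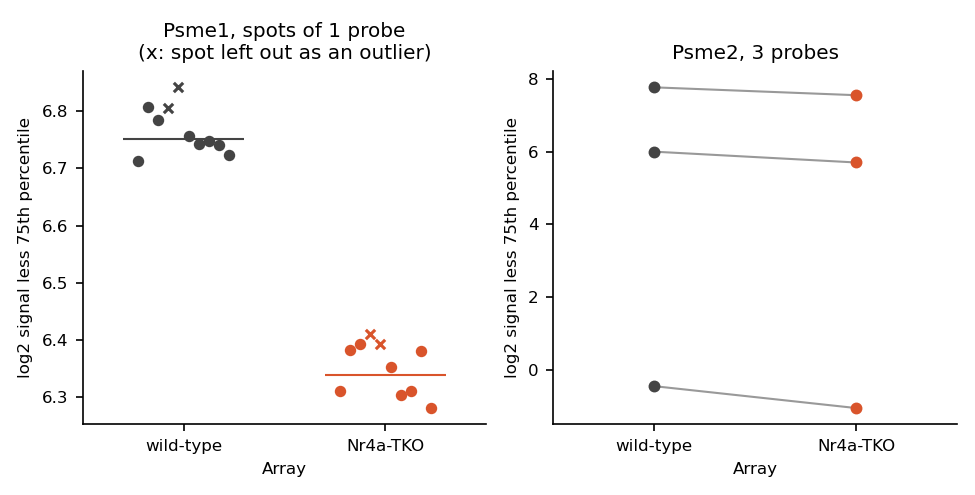
Left, log2 signal of the Psme1 spots on each array, less the 75th percentile, with crosses for spots left out as outliers and lines for the mean of the 8 spots used. Right, the 3 Psme2 probes on both arrays, where the orange point lies below the dark one for each probe.

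The other activators were not lower. Psme3, the nuclear activator PA28 gamma, was at 3.50 and 3.58, a difference of 0.08. Psme4, the activator PA200, was at 0.54 and 0.77, a difference of 0.23, with a second probe at 0.13. Psmf1, the inhibitor PI31, was at 2.21 and 2.28, a difference of 0.07. These values lie inside the middle 50% of all names.

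All 7 assembly factors were higher in the main scaling, against 59.6% of all names. The 20S chaperones Psmg1, Psmg2, Psmg3 and Psmg4 had a median of 0.23, from 0.16 for Psmg4 to 0.28 for Psmg3. The 19S chaperones Psmd5, Psmd9 and Psmd10 had a median of 0.25, from 0.06 for Psmd10 to 0.28 for Psmd5. Psmd10 lay below the median of all names and turned in direction under 6 alternatives. Psmd9 was at 2.37 and 2.62 at its brighter probe (0.25) and at 0.84 and 0.82 at the other (-0.02). Over the 12 members with several probes the gap between them had a median of 0.10, against 0.25 over 6748 genes. Most members are bright, and this comparison does not match the signal level. Of the 12, 10 had all probes in 1 direction. That share was not computed over the 6748 genes, and most members were higher in the main scaling, so the count is no result about the members.

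**Figure D4:**
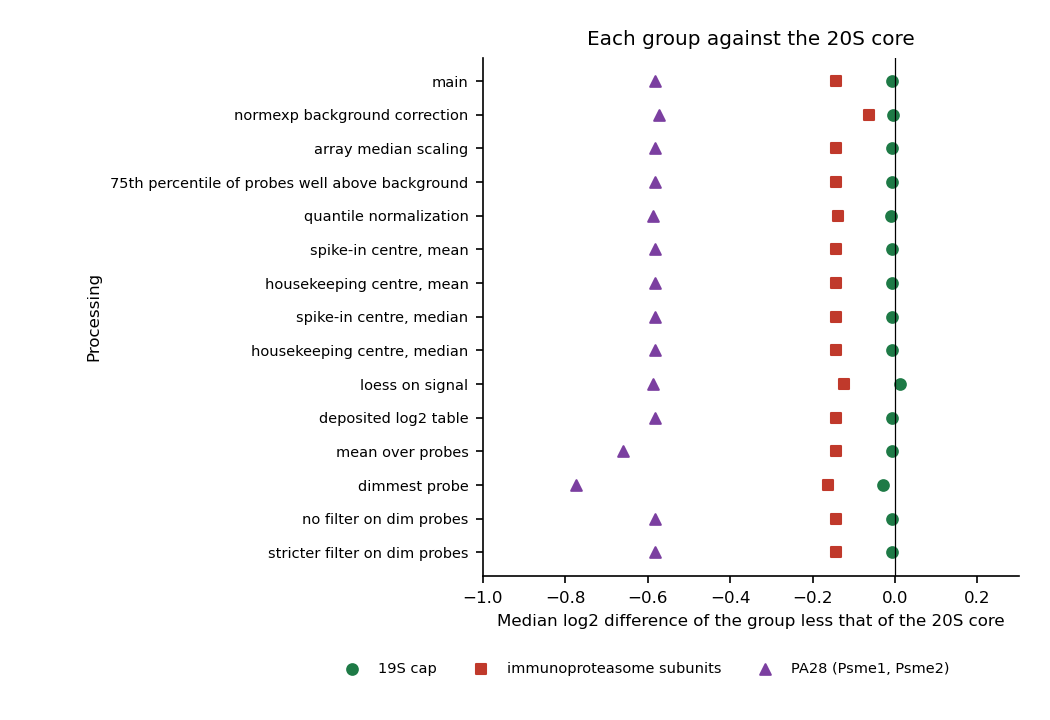
Median log2 difference of the 19S cap, the immunoproteasome subunits and PA28, each less the median of the 20S core, under the main processing and the 14 alternatives. The cap stays between -0.03 and 0.01, the immunoproteasome between -0.16 and -0.06 and PA28 between -0.78 and -0.57.

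Promoter sequence was read from the RefSeq table (GRCm38.p6), which holds 40 of the 48 members, in windows of 250 bases before to 50 after the start. Motifs were searched on both strands, and any match is a description only. The antioxidant response element (TGACNNNGC), which the proteasome regulator Nfe2l1 is known to bind, was present in 6 of 40 members against 13.991% of 27025 genes. The interferon-type element (GAAA, any 2 bases, GAAA) was in 5 of 40 against 3.993%, and in 3 of 40 against 3.463% when only the 250 bases before the start were taken. The gamma-type element (TTCNNNGAA) was in 3 of 40 against 9.554%, the CCAAT box (CCAAT) in 14 of 40 against 41.058%, and the kB-type element (GGG, any 2 bases, TTTCC) in 0 of 40 against 1.895%.

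The windows below hold the antioxidant element of 4 core and cap genes, in capitals (the minus-strand matches read in reverse complement). Psmd9 and Psme4 hold the others of the 6.
Psmb5, chr14:54618023-54618052, minus strand: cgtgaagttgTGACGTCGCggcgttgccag
Psmb6, chr11:70525338-70525367, plus strand: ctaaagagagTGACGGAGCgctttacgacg
Psmc6, chr14:45329587-45329616, plus strand: ccagccagtaGCTAAGTCAggcattgctca
Psmd12, chr11:107479278-107479307, plus strand: tctGCTGTGTCAcatttgcccccctcagac
The next window holds the interferon-type match in capitals, 10 bases past the Psme1 start, and was chosen after the Psme1 values were seen.
Psme1, chr14:55578493-55578522, plus strand: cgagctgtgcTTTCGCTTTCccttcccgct

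The genes with the antioxidant element did not differ alike, with Psmb5 at 0.09, Psmb6 at 0.21, Psmc6 at 0.42 and Psmd12 at 0.29. The direction of Psmb5 turned under 6 of the 14 alternatives and that of Psmb6 under 3. The 250 bases before the starts of both PA28 genes (for Psme2, before the outer of its 2 listed starts) and of the immunoproteasome genes follow, with the gamma-type match of Psmb8 and the CCAAT box of Psmb9 in capitals. The Psmb9 start lies 225 bases from that of Tap1, which runs the other way, and for Psmb9 only these bases are printed.
Psme1, chr14:55578244-55578493, plus strand: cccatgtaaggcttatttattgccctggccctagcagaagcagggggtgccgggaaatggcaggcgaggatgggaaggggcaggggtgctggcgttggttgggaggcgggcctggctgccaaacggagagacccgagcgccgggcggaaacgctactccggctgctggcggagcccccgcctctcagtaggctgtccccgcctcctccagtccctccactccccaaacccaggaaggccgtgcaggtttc
Psme2, chr14:55591102-55591351, minus strand: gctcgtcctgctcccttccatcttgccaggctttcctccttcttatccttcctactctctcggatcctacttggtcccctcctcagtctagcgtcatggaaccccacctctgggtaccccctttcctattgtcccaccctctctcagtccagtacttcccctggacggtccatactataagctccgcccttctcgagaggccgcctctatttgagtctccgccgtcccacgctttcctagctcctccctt
Psmb8, chr17:34197945-34198194, plus strand: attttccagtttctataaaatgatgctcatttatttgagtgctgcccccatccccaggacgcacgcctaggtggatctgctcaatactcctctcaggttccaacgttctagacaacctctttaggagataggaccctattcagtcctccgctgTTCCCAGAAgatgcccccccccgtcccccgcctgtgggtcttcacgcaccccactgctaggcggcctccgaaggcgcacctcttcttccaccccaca
Psmb9, chr17:34187331-34187555, minus strand: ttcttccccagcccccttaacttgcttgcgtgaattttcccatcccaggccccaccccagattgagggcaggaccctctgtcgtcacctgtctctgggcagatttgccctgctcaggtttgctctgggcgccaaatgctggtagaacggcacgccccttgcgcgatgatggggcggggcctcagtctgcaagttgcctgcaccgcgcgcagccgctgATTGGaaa
Psmb10, chr8:105938393-105938642, minus strand: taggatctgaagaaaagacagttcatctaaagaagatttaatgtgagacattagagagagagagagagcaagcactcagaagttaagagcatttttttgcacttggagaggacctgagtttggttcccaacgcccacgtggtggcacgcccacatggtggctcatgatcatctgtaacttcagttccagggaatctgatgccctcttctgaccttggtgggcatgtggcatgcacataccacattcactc

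Psmb9 was at 0.39, while Tap1, the peptide transporter that shares this stretch, was at 2.38 and 2.35, a difference of -0.03. Psmb8 and Tap2 lie next to it, at 0.12 and -0.03. The MHC class II genes of the same stretch differed among themselves. H2-Ab1 was at 2.59 and 3.96 (1.37), H2-DMb1 at -2.60 and -1.05 (1.56) and H2-DMa at 1.36 and 1.86 (0.50). H2-Aa (0.17) and H2-Ob (0.01, with another probe at -0.21) had smaller differences than Psmb9.

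The genes around Psme1 and Psme2 were looked at after their values were seen. Emc9, which lies between them, was at 2.24 and 1.38, a difference of -0.85. Irf9, a partner of interferon signalling, was at 3.28 and 2.62 (-0.66), and Rec8, a cohesin subunit, at -0.36 and -1.13 (-0.77). Dcaf11 was lower too (-0.27), and Rnf31 was close to equal (-0.03). All measured genes from Dcaf11 to Rec8 were thus below 0, Rnf31 only slightly. Pck2 (0.95, dim at -2.78 and -1.84) and Ipo4 (0.41), the outermost measured genes of the stretch, were higher. Whether the neighbours share a direction beyond that of other genes was not tested.

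**Figure D5:**
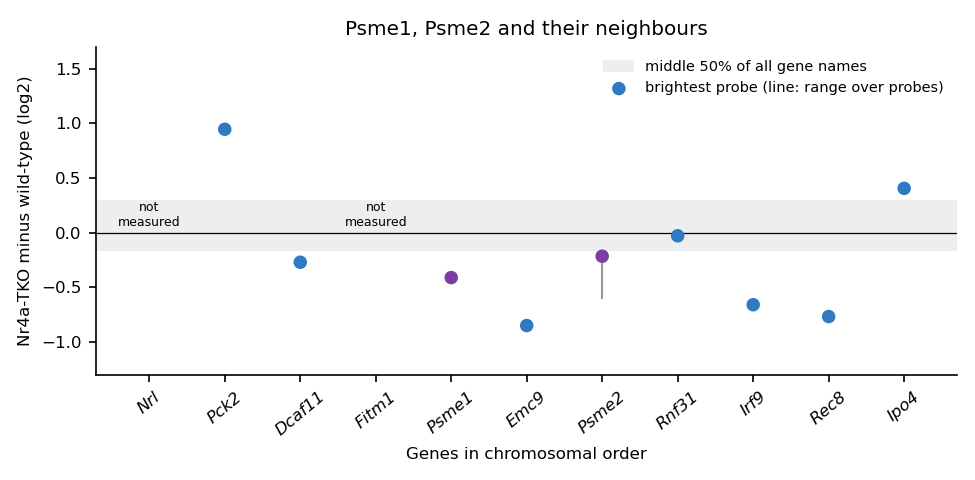
Difference in log2 signal (Nr4a-TKO label less wild-type) of Psme1, Psme2 (purple) and the genes next to them in chromosomal order, with a line over the range of a gene's probes and the grey band for the middle 50% of all names. Emc9, Irf9 and Rec8 lie below Psme1, and Pck2 and Ipo4 lie above 0.

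Partners of the proteasome without a Psm name lay between the members and all names. Of 11 measured, 9 were higher, against 59.6% of all names, and 2 lower, with a median of 0.17. Past 1.5-fold were 0, against 8.36% higher and 7.36% lower over all names. Akirin2, which brings proteasomes into the nucleus, was at 2.98 and 3.43 (0.45), and Pomp, the chaperone of the 20S core, at 5.88 and 6.17 (0.29). The ubiquitin and substrate delivery list of 28 genes had a median of 0.07. Past 2-fold were 1 higher, the mitotic ubiquitin conjugator Ube2c (2.09-fold), and 1 lower, Ube2d1 (2.12-fold, dim at -1.29 and -2.37). Over all names the shares were 3.15% and 3.06%, so these counts are near the background. MHC class I processing genes had a median of 0.06 over 17, with Tapbpl at 0.63, Thop1, a peptidase, at 0.62, and Tapbp at -0.33.

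Among 15 regulators of proteasome genes 8 were higher and 7 lower, against 59.6% of all names higher. Nfe2l1, which drives subunit genes when proteasomes are short, was at -1.04 and -0.56 (0.48). Nlrc5, a transactivator of MHC class I and immunoproteasome genes, was lower by 1.53-fold (4.08 and 3.46), with its other probe at -0.27. Irf8 was lower by 1.99-fold (4.07 and 3.08), and Irf1, which acts at the immunoproteasome promoters, was at -0.10 with a second probe at 1.22. Stat3 was at 4.63 and 5.35 (0.72).

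Most proliferation genes and all housekeeping genes were higher too in the main scaling. Of 15 proliferation genes 13 were higher, against 59.6% of all names, and 5 were at least 2-fold higher, against 3.15%. Their median was 0.54, and their summed level was 9.53 in wild-type and 9.89 in the array labelled Nr4a-TKO. All 15 housekeeping genes were higher, with a median of 0.14. Some of them, such as Actb and Gapdh, turned in direction under other scalings, while others, such as Tbp and Pgk1, did not. The summed level of the measured B cell markers (3 of 6) was -0.83 and 0.26, and of CD8 and NK cell markers (4 of 6) 2.39 and 1.66. Blk (-3.91 and -4.45) and Klrd1 (-2.11 and -6.74), well above background in wild-type only, are not in these sums. For macrophage and dendritic cell markers (6 of 10) it was 7.25 and 7.23, a sum carried by Siglech (7.12 and 7.09). That value is from 1 of 3 Siglech probes, and the rest were not well above background on both arrays. Of the other markers in that list Cd68 was at -0.11 and 0.44, and Lyz2 and Xcr1 were well above background in wild-type only. Granulocyte markers (3 of 6) went both ways, with a sum of 0.69 and 1.59. Ly6g was at -1.73 and 1.02 and Mpo at -1.59 and -4.54, while S100a8 and S100a9 were well above background in wild-type only and Prtn3 in the array labelled Nr4a-TKO only. The sum was 0.19 and -0.03 for thymic epithelial markers (7 of 9), -3.42 and -3.73 for erythroid (1 of 5) and -2.33 and -2.13 for germ cell markers (2 of 5). These leave out Hba-a1 (-4.54 and -5.01), well above background in wild-type only. They also leave out Sycp1 (-6.86 and -3.56), so in the array labelled Nr4a-TKO only. Among the markers, Ms4a1, Cd14, Itgax, Klrb1c, Ddx4 and Dazl were called above background by the scanner on 0 of the 2 arrays. The part of proliferation and of other cells in the values of the proteasome genes was not tested.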

How the data were processed

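Each of 2 samples, 1 wild-type and 1 Nr4a-TKO, was grouped by the genotype in the labels. Per the file headers, each spot's intensity was deposited as Agilent Feature Extraction (version 10.10.1.1) wrote it, with 62976 spots (3671 controls) per array annotated on mm9. A second deposited table held log2 values equal to the log2 processed signal less a constant per array (SD 0.00029), with column medians of -3.54 and -3.53. The rule behind the constant is unknown, and that table served as an alternative.

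Control and outlier spots (156 and 117) were left out, spots of a probe were averaged as log2 signals, and the 75th percentile over 55676 probes was subtracted. A gene took its probe with the highest mean signal and was measured if well above background on both arrays (66.0% and 63.9% of probes were so, and 0 spots were saturated). Members kept the name in the file, and RefSeq (GRCm38.p6) accessions named 27508 probes; 60 of 62 member probes matched their symbol and 2 had no match. Depth has no meaning for arrays, and their number limits the precision.

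Named genes are all members, and members of the listed gene groups with a count. The members and lists were chosen with earlier results of these data known, and so were the scalings. Neighbours, the PA28 contrast, the Psme1 and Psme2 sequences, the widening of the motif search past the start site and a median in place of a mean for the spike-in and housekeeping centres were added after seeing the values. Alternatives were normexp (offset 50), other scalings, quantile normalization, loess (span 0.3), the deposited table, other probe rules and filters, and thresholds of 1.5-fold and 3-fold. The counting step was tested on simulated data, where 200 of 200 changed genes were recovered among 25130. The planted differences lay past the 2-fold threshold, with noise near the spread between spots of a probe. Full recovery was therefore near certain, and it does not bear on differences as small as those of the members. Protein sequences were not used here, and some genes of the lists are not reported here. The tools were limma 3.58.1 in R 4.3.3, and Python 3.11.15 with matplotlib 3.10.9, pandas 2.3.3 and numpy 2.4.6.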

Additional observations from a re-analysis of the deposited data

How the results depend on the processing

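Over the 14 alternatives the counts of members past 2-fold stayed at 0 in each direction, and 18 of 47 members kept their sign. At 1.5-fold the counts were also 0 and 0, which fixes those at 3-fold at 0 too. No paired analysis was possible because each genotype has 1 array, and the slide could not be a block. The planned spike-in and housekeeping centres did not say which average to take. The mean was computed first, and the median was added after its values had been seen, so both are given.

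The core median of 0.27 became 0.095 with quantile normalization, 0.038 with the spike-in mean, 0.028 with the housekeeping mean, -0.0073 with the spike-in median, 0.12 with the housekeeping median and 0.093 with loess. In the same order the cap median of 0.26 became 0.086, 0.031, 0.021, -0.014, 0.12 and 0.10, and the immunoproteasome median of 0.12 became -0.042, -0.10, -0.11, -0.15, -0.020 and -0.031. Members higher by any amount went from 44 to 24 with the spike-in mean, 24 with the housekeeping mean and 16 with the spike-in median. They were 33 with the housekeeping median, 36 with quantile normalization and 35 with loess. The spike-in and housekeeping centrings shift every gene by a constant. PA28 less the core became -0.78 with the dimmest probe. Of the summary values under the alternatives 108 stayed within the spread between spots (or within 1.5 times for counts) and 22 moved. Part of the 108 was fixed in advance. Contrasts between groups cannot move under a shift by a constant, and a count of 0 stays 0 at a higher threshold. For single genes 1564 stayed and 1125 moved. A reversal was counted only for single genes at least 2-fold different in the main scaling, and 0 were found. No member was that different, so this count does not cover the members or the summary values.

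Over all names, 741 were at least 2-fold higher and 720 lower. These were 478 and 457 with normexp, 482 and 1143 with the spike-in mean, 468 and 1168 with the housekeeping mean, 449 and 1251 with the spike-in median, 1988 and 1834 with no filter on dim probes and 293 and 309 with the stricter one. The spread between spots (0.061 and 0.051) holds no variation between mice.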
